A study of Homo sapiens with 9 samples.

Results

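The nuclear pore complex genes were followed in MDA-MB-231 cells given a copper chelator. Members were taken by name from the count table, as symbols beginning with NUP and a number, with pseudogenes and hyphenated names left out, together with AAAS, NDC1, POM121, POM121C, SEH1L, SEC13, TPR, RAE1, RANBP2, RANGAP1, XPO1 and KPNB1. This gave 35 of the 59453 gene names in the table, and 33 of the 35 passed the filter on low counts, as did 16556 genes in all. The 2 others were NUP210L, a relative of NUP210, with 0 to 7 reads per library, and NUP62CL, a relative of NUP62, with 0 or 1 read per library. AAAS was known to fall strongly at 24 h when the genes were chosen, so its values against untreated cells at that time, and its later comparison with 8 h, are given as a description with no test.

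RNA-Seq was carried out on MDA-MB-231, an established human triple-negative breast cancer line grown in flasks in serum-supplemented medium. TEPA, a polyamine that binds copper, was applied for 8 h or 24 h, and 3 libraries were made from each treated group and 3 from untreated cells. No genetic change was introduced in any group. A single untreated group served both times, so the 8 h and 24 h comparisons share their control libraries. GEO's labels give the dose as 8 mM, whereas the study's RNA sequencing methods give 4 mM for the same experiment. Its section on cell treatments names both 4 and 8 mM for this line. No source states that the 3 libraries of a group came from separate cultures, and p-values therefore measure the spread between these libraries, which may be technical.

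The nuclear pore complex is the channel through the nuclear envelope that carries proteins and RNA between nucleus and cytoplasm. Its proteins, the nucleoporins, form stacked outer, inner and membrane rings around a central channel lined with phenylalanine-glycine repeats, with filaments on the cytoplasmic face and a basket on the nuclear face. Transport receptors such as importin beta and exportin 1 pass through it with their cargo, and the small GTPase Ran sets the direction. Each pore holds many copies of every nucleoporin, the scaffold proteins are long-lived, and many pores are needed by a dividing cell, which builds new ones both in interphase and after mitosis.

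The libraries held between 34633755 and 49342659 counts, and the members took 0.536 to 0.60% of them. Levels are given as CPM, the counts of a gene for every 1000000 counts in a library, on library sizes scaled by the trimmed mean of M-values. The tested members had between 448 and 48445 reads in a library. Of the line's own markers VIM stood at 3674 CPM in untreated cells and EGFR at 435 CPM, while of 5 genes expected to be low ESR1 was at 0.155 CPM, CDH1 at 0.624 CPM, EPCAM at 1.13 CPM and PGR at 0, but ERBB2 was at 81.4 CPM, above the level of AAAS. Of 5 markers of other cell types, PTPRC and ALB were at or near 0, and the 5 together summed to 3.63 to 5.01 CPM in untreated cells, 1.25 to 2.29 CPM at 8 h and 8.22 to 10.1 CPM at 24 h, most of it PECAM1. Their part in any result was not tested.

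Small and mixed changes marked the pore genes as a group, and AAAS stood apart from it. At 8 h, 17 of the 33 tested members were called higher than in untreated cells (51.5%) and 5 were called lower (15.2%), by edgeR's quasi-likelihood test at a threshold of 0.05 on p-values adjusted across the whole table. Over all 16556 genes the same rule called 25.2% higher and 24.5% lower. The members were not compared with genes of like read number. Every tested member had 448 reads or more in each library, and the filter keeps genes with fewer. At 24 h the balance was different, with 11 members lower (33.3%) beside 26.8% of all genes, and 7 higher (21.2%) beside 25.7% of all genes. Directly between the times, 17 members were lower at 24 h than at 8 h (51.5%) beside 28.8% of all genes, and 2 were higher (6.06%) beside 26.0%. The lower counts at 24 h and between the times include AAAS, which was chosen for its 24 h level. Without it they were 10 of 32 (31.2%) and 16 of 32 (50%). AAAS is also among the 5 lower at 8 h, against the same untreated libraries. The median log2 fold change of the tested members was 0.11 at 8 h and -0.03 at 24 h, and their median difference between the times was -0.12; over all genes the corresponding medians were -0.00, 0.00 and -0.02.

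Few of these changes were large. Beyond a log2 fold change of 0.5, no member was called at 8 h in either direction, beside 7.67% of all genes lower and 10.1% higher. At 24 h this limit left AAAS and NUP210 lower (6.06% of members, beside 8.46% of all genes) and no member higher (beside 10.2%). Between the times it left AAAS, NUP205 and NUP188 lower at 24 h (9.09% of members, beside 10.8%) and none higher (beside 10.4%). AAAS, chosen for its 24 h level, is counted in both of these shares of lower members. Without it, only NUP210 was left at 24 h, and only NUP205 and NUP188 between the times. At both times 6 members were called higher, and SEC13, NUP54 and NUP210 were called lower. AAAS was called lower at 8 h and was chosen for its fall at 24 h. NUP205, NUP188, POM121C and RANGAP1 rose at the first time and fell below untreated cells at the later one. No member did the opposite, and 7 were called at neither time. The share of all genes with each of these combinations was not counted. Some rest on calls lost when single libraries were left out: NUP37, NUP43 and NUP210 at 8 h, and KPNB1, POM121C and RANGAP1 at 24 h.

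**Figure D1:**
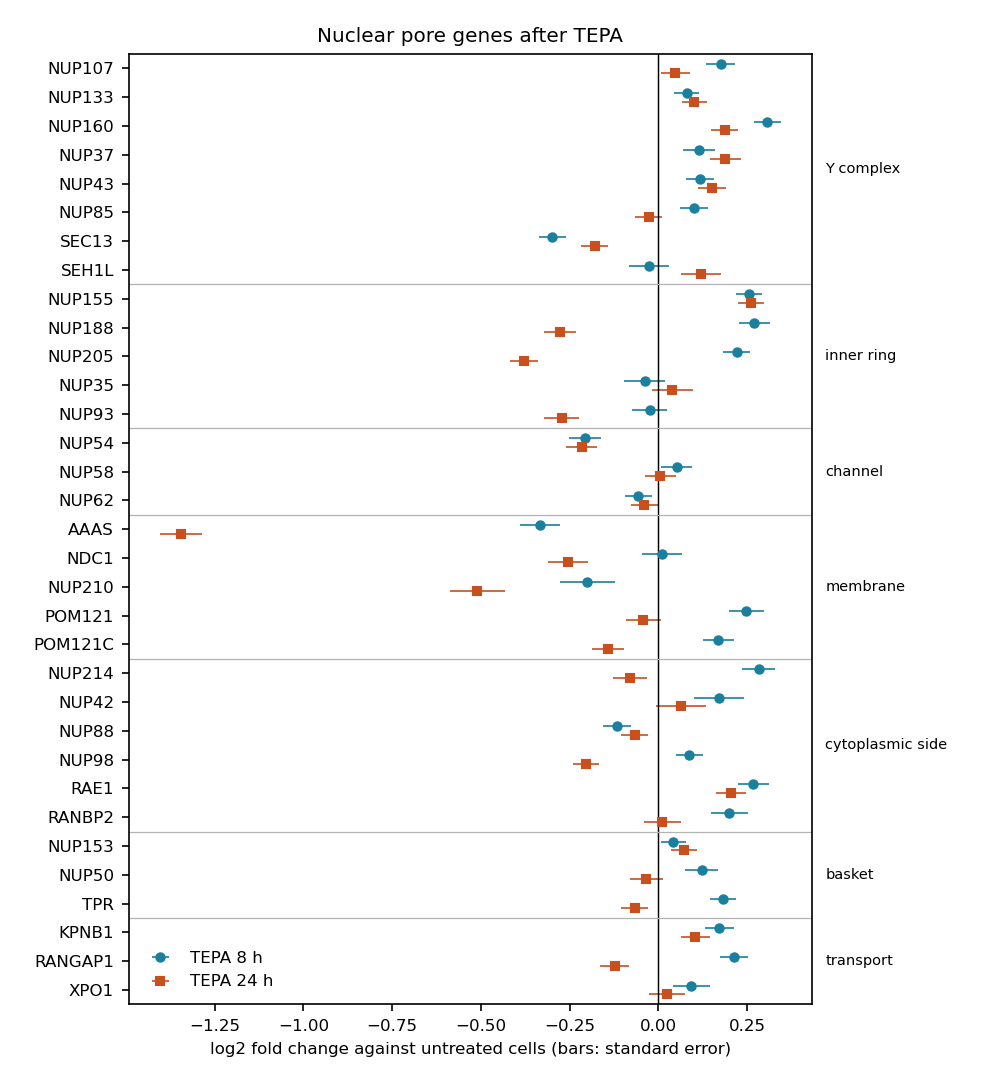
Log2 fold change against untreated cells (x axis) of the 33 tested members at 8 h (circles) and 24 h (squares), arranged by position in the pore, with bars for the standard error of the fit. AAAS at 24 h lies at -1.35, while all other points lie between -0.51 and 0.31.

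Summed over all 35 members, the level was 5627 ± 229 CPM in untreated cells (SD, n = 3), 6109 ± 10.3 CPM at 8 h and 5495 ± 33.8 CPM at 24 h. Untreated replicate 1 was the lowest of its group, at 5376 CPM, against 5679 and 5825 CPM in the others. Without it 13 rather than 17 members were called higher at 8 h, as was also the case without untreated replicate 3. The share of all genes called in these fits with fewer libraries was not counted. Summed over a list of 12 proliferation genes, the level moved in the same order. This sum was 2863 to 3049 CPM untreated, 3233 to 3288 CPM after 8 h of TEPA and 2811 to 2833 CPM after 24 h. The part of these genes in the members' levels was not tested. That list was itself mixed, with 4 genes called lower and 4 higher at 8 h, and 7 lower and 2 higher at 24 h. The list's median log2 fold change was 0.003 at 8 h and -0.096 at 24 h. In bulk RNA, a change in the share of cells that express a gene and a change in the RNA per cell cannot be told apart.

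**Figure D2:**
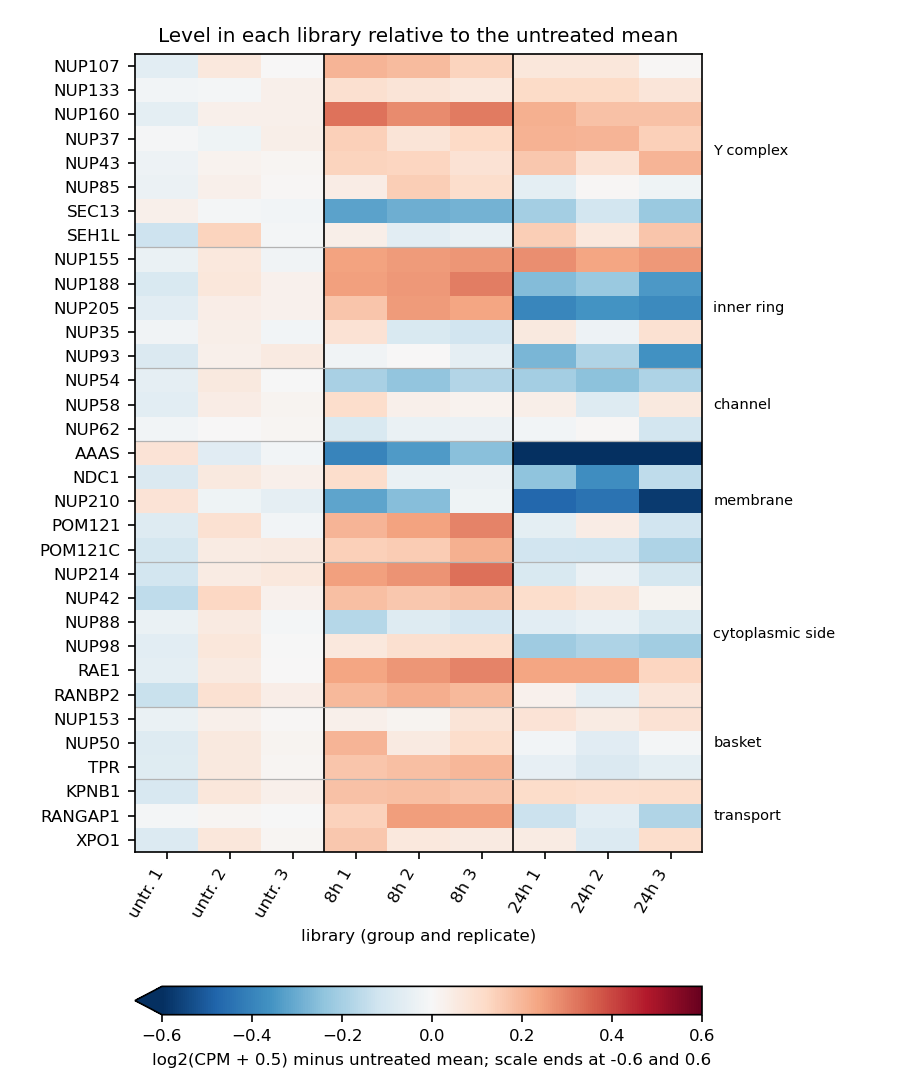
Level of each tested member in each of the 9 libraries, as log2(CPM + 0.5) minus the mean of the 3 untreated libraries, with red above and blue below that mean and the scale ending at -0.6 and 0.6. Untreated replicate 1 is pale blue for most members, the 8 h libraries are red for most, and the 24 h libraries are mixed, with AAAS beyond the end of the scale.

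Among the membrane-anchored members, which hold the pore in the envelope, AAAS fell the furthest. AAAS encodes aladin, a WD-repeat protein that is tethered at the pore by the transmembrane nucleoporin NDC1 and is mutated in triple A syndrome. The gene (ENSG00000094914.14) lies on the minus strand at chr12:53307456-53324864 (GRCh38, GENCODE 44), and no other annotated gene overlaps its exons on that strand. It stood at 45.2, 40.8 and 42.3 CPM in the untreated libraries, at 32.3, 33.7 and 35.9 CPM at 8 h and at 16.1, 16.8 and 17.6 CPM at 24 h. The 3 groups did not overlap, and the order ran from untreated to 8 h to 24 h. At 8 h the log2 fold change was -0.33 (SE 0.056, adjusted p = 0.000147, edgeR), and the level fell by 20.6%. The untreated libraries are those against which its 24 h fall was seen, so this p-value is not independent of the choice of AAAS. After 24 h it was -1.35 (SE 0.059), where the level fell by 60.7%. From 8 h to 24 h the change was -1.01 (SE 0.060). AAAS made up 0.701 to 0.841% of the members' counts in untreated cells, 0.529 to 0.586% at 8 h and 0.292 to 0.320% at 24 h.

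NUP210, also called gp210, spans the membrane and has a large domain in the space between the nuclear membranes. It was at 19.9, 18.5 and 18.1 CPM in untreated cells, 15.02, 15.7 and 18.4 CPM at 8 h and 13.4, 13.7 and 12.5 CPM at 24 h. The 24 h libraries were all below the others, whereas TEPA 8 h replicate 3 lay within the untreated range. Its fall at 24 h was called, at a log2 fold change of -0.51 (SE 0.078, adjusted p = 4.86e-05). At 8 h the value was -0.20 (SE 0.077, adjusted p = 0.0413), and this call was lost without untreated replicate 1, TEPA 8 h replicate 1 or TEPA 8 h replicate 2, with values of -0.30 to -0.15 over all libraries left out in turn.

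NDC1, the transmembrane anchor of aladin, was at 158, 175 and 171 CPM untreated, 181, 164 and 164 CPM at 8 h and 142, 130 and 151 CPM at 24 h. Only the 24 h libraries were all below the untreated ones, with a log2 fold change of -0.25 (SE 0.056, adjusted p = 0.00134), against 0.01 (SE 0.056, adjusted p = 0.902) at 8 h.

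POM121 and POM121C are close copies of a transmembrane nucleoporin. Of their 100-base words, 23.5% in POM121 and 31.6% in POM121C were also found in transcripts of other genes, foremost the other copy. Reads from such stretches may therefore not be assigned to the right gene. Both copies rose at 8 h, POM121 from 123, 138 and 128 CPM to 149, 153 and 159 CPM and POM121C from 137, 152 and 153 CPM to 163, 164 and 171 CPM, with no overlap between the groups. The log2 fold changes at 8 h were 0.25 (SE 0.050, adjusted p = 0.000690) for POM121 and 0.17 (SE 0.044, adjusted p = 0.00500) for POM121C. At 24 h POM121C was called lower at -0.14 (SE 0.045, adjusted p = 0.0134), a call lost without untreated replicate 2 or 3 or TEPA 24 h replicate 3 (range -0.19 to -0.12), and POM121 was at -0.04 (adjusted p = 0.5001). Apart from AAAS, the other 4 membrane-anchored members were all called lower at 24 h than at 8 h, beside 28.8% of all genes, and in POM121 and POM121C the differences were -0.29 (SE 0.050, adjusted p = 0.000138) and -0.31 (SE 0.045, adjusted p = 2.32e-05).

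**Figure D3:**
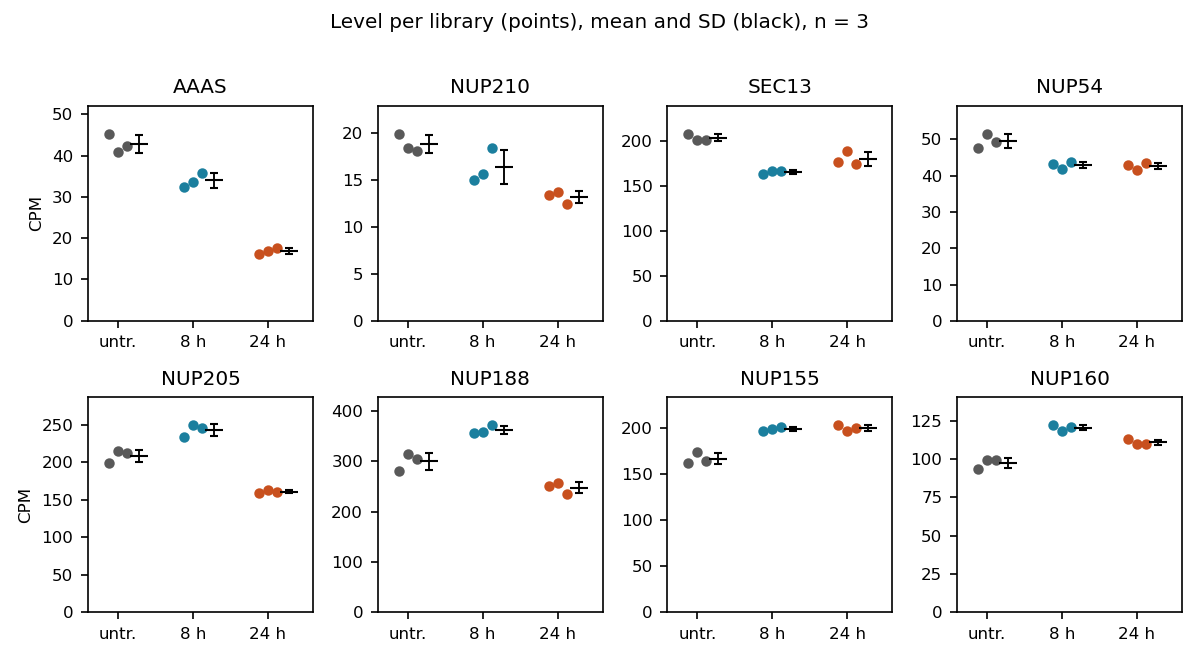
Level in CPM (y axis, from 0) of 8 members in each library, with the points for the 3 libraries of a group and the mean and SD in black. AAAS goes from 42.8 to 34.0 to 16.9 CPM, NUP205 and NUP188 peak after 8 h and are lowest after 24 h, and NUP155 and NUP160 lie above untreated cells at both times.

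The inner ring is the scaffold that lines the pore's midplane. Of its 5 genes 3 were higher and none lower at 8 h, beside 25.2% and 24.5% of all genes, and 3 were lower and 1 higher at 24 h, beside 26.8% and 25.7%. NUP205 and NUP188 encode large, related solenoid proteins that each bind NUP93. NUP205 (ENSG00000155561.15, chr7:135557917-135648757, plus strand) was at 199, 214 and 212 CPM untreated, 234, 249 and 246 CPM at 8 h and 159, 163 and 160 CPM at 24 h. All 8 h libraries were above and all 24 h libraries below the untreated range. Its log2 fold change was 0.22 (SE 0.039, adjusted p = 0.000215) at 8 h and -0.38 (SE 0.039, adjusted p = 8.42e-07) at 24 h, and 24 h differed from 8 h by -0.60 (SE 0.039, adjusted p = 6.06e-09).

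NUP188 (ENSG00000095319.14, chr9:128947699-129007096, plus strand) was at 281, 314 and 305 CPM untreated, 356, 359 and 371 CPM at 8 h and 250, 257 and 236 CPM at 24 h. As in NUP205, the groups did not overlap, with 8 h highest and 24 h lowest. The fold changes were 0.27 (SE 0.044, adjusted p = 0.000110) and -0.28 (SE 0.044, adjusted p = 7.50e-05), and the difference between the times was -0.55 (SE 0.044, adjusted p = 5.83e-08).

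NUP93, the hub that joins the inner ring to the central channel, was at 102, 111 and 113 CPM untreated, 107, 109 and 105 CPM at 8 h and 89.7, 95.7 and 84.3 CPM at 24 h. Its 8 h libraries lay inside the untreated range and its 24 h libraries below it. The 24 h change of -0.27 (SE 0.049, adjusted p = 0.000221) was called, and the 8 h value was -0.02 (SE 0.049, adjusted p = 0.701).

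NUP155, which links the ring to the membrane, was the exception at 24 h. It was at 162, 174 and 164 CPM untreated, 197, 199 and 201 CPM at 8 h and 203, 197 and 200 CPM at 24 h, so both treated groups lay above the untreated range and overlapped with each other. The fold changes were 0.25 (SE 0.036, adjusted p = 3.27e-05) and 0.26 (SE 0.036, adjusted p = 2.10e-05), with a difference between the times of 0.01 (SE 0.036). NUP35, a small membrane-binding member of the ring, was called at neither time, with values of -0.04 (SE 0.058) and 0.04 (SE 0.058).

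The Y complex is the Y-shaped assembly that builds the outer rings. Of the 8 genes listed for it, 5 were higher and 1 lower at 8 h, beside 25.2% and 24.5% of all genes. At 24 h, 4 were higher and 1 lower, beside 25.7% and 26.8%. NUP98 and AHCTF1 were counted in other lists. Of the 5 higher at 8 h, NUP43, NUP37 and NUP85 lost their calls when single libraries were left out. NUP160, at the short arms of the Y, was at 93.4, 99.4 and 99.3 CPM untreated, 122, 119 and 121 CPM at 8 h and 113, 110 and 110 CPM at 24 h. Every treated library was above every untreated one. Its log2 fold change was 0.31 (SE 0.038, adjusted p = 6.84e-06) at 8 h and 0.19 (SE 0.038, adjusted p = 0.000593) at 24 h, and the difference between the times of -0.12 (SE 0.037, adjusted p = 0.0126) was no longer called without TEPA 8 h replicate 3 (-0.11).

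SEC13 was the 1 gene of this list called lower against untreated cells. The protein also belongs to the COPII coat of vesicles leaving the endoplasmic reticulum and to the nutrient-sensing GATOR2 complex. It was at 208, 202 and 201 CPM untreated, 163, 166 and 167 CPM at 8 h and 177, 189 and 174 CPM at 24 h, and the groups did not overlap. The change was -0.30 (SE 0.038, adjusted p = 9.62e-06) at 8 h and -0.18 (SE 0.038, adjusted p = 0.000885) at 24 h. It was higher at 24 h than at 8 h by 0.12 (SE 0.038, adjusted p = 0.0137), which was not called without TEPA 24 h replicate 2 (0.09).

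SEH1L, the usual partner of SEC13 in GATOR2, was at 73.1, 87.5 and 79.0 CPM untreated, 81.7, 76.3 and 77.3 CPM at 8 h and 88.2, 83.2 and 89.4 CPM at 24 h. It was the other member higher at 24 h than at 8 h, by 0.15 (SE 0.056, adjusted p = 0.0357), but this call was lost without TEPA 8 h replicate 2 or 3 or TEPA 24 h replicate 1 or 3 (range 0.13 to 0.18). Neither comparison with untreated cells was called, except that the 24 h value of 0.12 (SE 0.056, adjusted p = 0.0841) was called without untreated replicate 2 (0.19). NUP43 and NUP37, small propeller proteins at the arms of the Y, were both called higher at 24 h, at 0.15 (SE 0.039, adjusted p = 0.00395) and 0.19 (SE 0.044, adjusted p = 0.00186). Their 8 h calls, at 0.12 (adjusted p = 0.0206) and 0.11 (adjusted p = 0.0416), were lost without each of 4 of 6 libraries for NUP43 and without each of the 6 for NUP37. The 8 h call of NUP85, a short-arm protein, at 0.10 (SE 0.039, adjusted p = 0.0427), was lost without each of 5 of 6 libraries (range 0.07 to 0.12). NUP107, in the stem of the Y, was called higher at 8 h alone, at 0.18 (SE 0.041, adjusted p = 0.00225), and its stem partner NUP133 at 24 h alone, at 0.10 (SE 0.035, adjusted p = 0.0245), a call lost without each of 4 of 6 libraries.

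In the central channel, where NUP62, NUP58 and NUP54 form a trimer whose repeats make the permeability barrier, NUP54 alone was called. It was at 47.6, 51.5 and 49.3 CPM untreated, 43.1, 41.9 and 43.7 CPM at 8 h and 42.9, 41.6 and 43.4 CPM at 24 h. Every treated library was below every untreated one, and the treated groups overlapped. The log2 fold changes were -0.21 (SE 0.045, adjusted p = 0.00122) and -0.22 (SE 0.044, adjusted p = 0.000697). NUP62 and NUP58 had values between -0.06 and 0.05 at both times, with standard errors of 0.038 and 0.044, and neither was called.

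On the cytoplasmic side, where mRNA leaves the pore, 3 of 6 genes were higher and 1 lower at 8 h, beside 25.2% and 24.5% of all genes. At 24 h, 1 of the 6 was higher and 1 lower, beside 25.7% and 26.8% of all genes. NUP214, a filament protein that anchors the export helicase DDX19, was at 90.3, 101 and 102 CPM untreated, 116, 118 and 123 CPM at 8 h and 91.5, 95.1 and 90.8 CPM at 24 h. Only the 8 h libraries stood apart, at a log2 fold change of 0.28 (SE 0.047, adjusted p = 0.000125), and at 24 h the value was -0.08 (SE 0.047, adjusted p = 0.170), which was called without untreated replicate 1 (-0.13). RAE1, an mRNA export factor that binds NUP98, was at 95.7, 104 and 100.1 CPM untreated, 118, 120 and 123 CPM at 8 h and 118, 118 and 109 CPM at 24 h. All of its treated libraries were above the untreated ones, at 0.27 (SE 0.043, adjusted p = 9.06e-05) and 0.20 (SE 0.043, adjusted p = 0.000830).

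NUP88, which pairs with NUP214, was called lower at 8 h at -0.12 (SE 0.038, adjusted p = 0.0190), from 196, 210 and 201 CPM to 180, 192 and 189 CPM, and the call was lost without untreated replicate 2 or TEPA 8 h replicate 1 (range -0.14 to -0.10). NUP98, found on both faces of the pore and in the nucleoplasm, was called lower at 24 h at -0.20 (SE 0.038, adjusted p = 0.000273). RANBP2, the giant filament protein with SUMO ligase activity, rose at 8 h by 0.20 (SE 0.052, adjusted p = 0.00462) and was at 0.01 (SE 0.052) at 24 h; 7.56% of its words are shared with other genes, foremost RGPD6. NUP42 was called at neither time, except that its 8 h value of 0.17 (SE 0.071) was called without untreated replicate 2 (0.23).

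In the nuclear basket, TPR, its main filament protein, rose at 8 h by 0.18 (SE 0.038, adjusted p = 0.000866) and was at -0.07 (SE 0.038, adjusted p = 0.155) at 24 h, a value that was called without untreated replicate 1 (-0.10). NUP50 was called higher at 8 h at 0.12 (adjusted p = 0.0386), although its 8 h and untreated libraries overlapped and the call was lost without each of 4 of 6 libraries. NUP153 was called at neither time, and no basket gene was called at 24 h.

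Of the transport factors among the members, RANGAP1, the GTPase-activating protein that RANBP2 holds at the pore, was at 282, 286 and 284 CPM untreated, 313, 338 and 337 CPM at 8 h and 260, 272 and 251 CPM at 24 h. The groups did not overlap. It was called higher at the first time at 0.21 (SE 0.040, adjusted p = 0.000402) and lower at the later one at -0.12 (SE 0.040, adjusted p = 0.0170), the 24 h call being lost without TEPA 24 h replicate 1 or 3 (range -0.16 to -0.10). KPNB1, importin beta, was called higher at 8 h at 0.17 (SE 0.040, adjusted p = 0.00232). Its 24 h value of 0.10 (SE 0.040, adjusted p = 0.0404) lost its call without each of 5 of 6 libraries, all but untreated replicate 2 (range 0.06 to 0.14). XPO1, exportin 1, was called at neither time, at 0.09 (SE 0.051) and 0.03 (SE 0.051).

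Levels of different members were compared per kb of annotated exon in untreated cells, and they spread over 60.4-fold. KPNB1 was highest at 85.4 ± 5.04 CPM per kb (SD, n = 3), followed by RANGAP1 at 46.3 ± 0.370, SEC13 at 37.9 ± 0.714, NUP188 at 37.3 ± 2.09 and NDC1 at 35.6 ± 1.89 CPM per kb. The median was 16.8 CPM per kb. AAAS ranked 26 of 33 at 9.05 ± 0.475 CPM per kb, and NUP210 was lowest at 1.41 ± 0.0721 CPM per kb. In this order 14 of 32 neighbouring pairs were apart by their mean ± 1 SD, and SEC13, NUP188 and NDC1 were among the neighbours that were not. The length used matters: per kb of the canonical transcript, SEC13 (149.98 CPM per kb), KPNB1 (145 CPM per kb) and XPO1 (130.2 CPM per kb) led, AAAS ranked 19 at 23.6 CPM per kb, and NUP210 was again lowest at 2.61 CPM per kb. As a description across the 33 genes, which share libraries, Spearman's rho between canonical transcript length and log2 fold change was 0.461 at 8 h and -0.134 at 24 h. With the difference between the times it was -0.475. The same correlations over all genes were not computed.

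Upstream sequence was available from RefSeq (GRCh38.p14) for 31 of the 33 tested members, and the 250 bases before the start were searched on both strands for 6 short motifs. CCGGAAG, the ETS motif, was in 13 members (41.9%), against 8.82% of all 27305 promoters searched and 15.6% of the 11042 that belong to tested genes. It was held by 3 of the 5 members called lower at 8 h and by 7 of the 15 searched members called higher. The close copies POM121 and POM121C are counted separately, in the 13 and in the 7. CCAAT, the NF-Y box, was in 35.5% of members and 34.9% of the promoters of tested genes, GCATGC, the core of the NRF1 motif, in 9.68% and 7.93%, and TTTGAA, the CHR element of cell cycle genes, in 19.4% and 8.32%. Neither E2F motif searched, TTTCCCGC or TTTGGCGC, was found in a member, against 2.30% and 0.888% of the promoters of tested genes. These are letter matches and not measured binding sites.

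The following sequences show the upstream regions of AAAS, the member with the largest fall, of SEC13 and NUP54, lower at both times, and of NUP160, higher at both times. Each runs 5′ to 3′ on the minus strand, where the gene lies, and ends at the base before the RefSeq start, with matches to the searched motifs in capitals. The AAAS sequence is chr12:53321611-53321860, SEC13 chr3:10321113-10321362, NUP54 chr4:76148398-76148647 and NUP160 chr11:47848351-47848600. GENCODE 44 has transcripts of AAAS, NUP54 and NUP160 that start further upstream, inside or beyond these windows.
AAAS: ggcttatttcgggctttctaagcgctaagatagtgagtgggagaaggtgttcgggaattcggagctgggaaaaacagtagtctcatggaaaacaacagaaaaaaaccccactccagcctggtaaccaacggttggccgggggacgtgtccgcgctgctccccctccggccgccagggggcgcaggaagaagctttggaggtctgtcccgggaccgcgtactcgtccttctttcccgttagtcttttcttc
SEC13: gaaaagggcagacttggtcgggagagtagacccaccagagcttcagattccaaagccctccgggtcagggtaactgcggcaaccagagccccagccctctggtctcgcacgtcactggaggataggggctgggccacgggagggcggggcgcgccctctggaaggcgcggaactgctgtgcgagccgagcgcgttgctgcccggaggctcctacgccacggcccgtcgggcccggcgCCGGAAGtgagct
NUP54: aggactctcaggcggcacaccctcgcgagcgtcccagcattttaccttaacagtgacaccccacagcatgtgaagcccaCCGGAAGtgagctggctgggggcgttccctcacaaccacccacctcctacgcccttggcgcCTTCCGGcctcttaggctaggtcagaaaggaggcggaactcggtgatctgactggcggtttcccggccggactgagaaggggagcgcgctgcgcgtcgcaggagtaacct
NUP160: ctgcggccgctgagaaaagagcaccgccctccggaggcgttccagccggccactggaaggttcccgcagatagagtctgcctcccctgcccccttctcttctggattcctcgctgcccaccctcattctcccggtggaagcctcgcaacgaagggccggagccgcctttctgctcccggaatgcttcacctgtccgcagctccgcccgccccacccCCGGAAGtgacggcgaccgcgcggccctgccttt
SEC13 holds the ETS motif 13 bases before the start, NUP160 34 bases before it and NUP54 at 171 and 110 bases before it, the latter on the opposite strand. AAAS had no match to any of the 6 motifs in this window. Among these sequences the ETS motif stood upstream of SEC13 and NUP54, which fell, and of NUP160, which rose. Of all searched members, it was held by 3 of 11 called lower at 24 h and by 2 of 5 called higher, with AAAS counted in the 11.

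Genes that work with the pore were followed by lists. Of 14 other pore-linked proteins, 4 were higher and 2 lower at 8 h, and 5 were higher and 3 lower at 24 h, the highest being TOR1AIP1, an inner nuclear membrane partner of torsin (0.35, SE 0.037). Of 17 importins, 5 were higher and 2 lower at 8 h, and 4 were higher and 2 lower at 24 h. The lowest there was IPO4, at -0.84 (SE 0.26) from only 0.912 CPM, and the highest IPO13 at 0.26 (SE 0.039). Of 6 exportins, 5 were higher and none lower at 8 h, and 2 were higher and 1 lower at 24 h, namely XPO4 at 0.69 (SE 0.061) and XPOT at 0.20 (SE 0.037) above and XPO7 at -0.16 (SE 0.039) below.

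The Ran cycle list of 6 genes had 3 genes that rose after 8 h and 4 that fell after 24 h, the lowest being RANBP3 at -0.27 (SE 0.045). Of 13 mRNA export genes, 6 were higher and 2 lower at 8 h, and 2 were higher and 5 lower at 24 h. DDX39B, the export helicase UAP56, went from 34.9 CPM untreated to 93.9 CPM at 8 h, with 54.0 CPM at the later time (1.43, SE 0.055, and 0.63, SE 0.055), while THOC7, a subunit of the THO complex, was at -0.74 (SE 0.043) at 24 h. Of 13 lamina and envelope genes, 2 were higher and 1 lower at 8 h, and 4 were higher and 8 lower at 24 h, from LMNA, the gene of lamins A and C, at -0.43 (SE 0.038) to SYNE2, the gene of nesprin 2, at 0.47 (SE 0.063). The named values in these lists were called by edgeR's quasi-likelihood test with Benjamini-Hochberg adjustment, and the shares of all genes given above apply to them as well.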

How the data were processed

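Raw gene counts of 9 libraries (3 untreated, 3 TEPA 8 h, 3 TEPA 24 h) were used as deposited. Per the study's methods, the authors checked paired 100-base reads from stranded mRNA libraries with FastQC, aligned them to hg38 with HISAT2 and counted them by gene name and on the reverse strand with featureCounts and Ensembl 103; reads of loci that share a name are summed. Counts were tested in R 4.3.3 with edgeR 4.0.16 (quasi-likelihood test, TMM factors of 0.978 to 1.039, filterByExpr with a minimum count of 10, all 9 libraries in 1 fit), and p-values were Benjamini-Hochberg adjusted over 16556 genes holding 99.9% of counts; the procedure was tested on simulated data. Calls take an adjusted p under 0.05. Totals of 34633755 to 49342659 counts per library and a common biological coefficient of variation of 0.0481 set the precision. No replicate pair differed by as little as sampling noise (chi-square per gene at least 2.35).

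Pseudogenes were taken as names that end in a digit, P and a number. Positions and lengths came from GENCODE 44 (same build), promoters from RefSeq. Members and lists were chosen with earlier results of these data known. Named were AAAS, the 5 lowest and 5 highest called members of each comparison, members called in opposite directions, POM121 with POM121C, untested members, and the lowest and highest called gene of each other list at 24 h; further members and list genes were named after their values were seen, and 1 gene that this rule names is not reported here. Alternatives were RLE and upper-quartile factors, library sizes without mitochondrial genes, no filter, a log2 limit of 0.5, the replicate number as a block, DESeq2 1.42.0, only the groups compared, and each library left out; canonical transcript length was added after seeing the data.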

Additional observations from a re-analysis of the deposited data

Results flagged for a closer look

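The effects of TEPA at 24 h and at 8 h were compared directly between the treated groups (edgeR's quasi-likelihood test, adjusted over all genes). This is the test of the difference between the effects, since the untreated libraries are shared. Of 18 tested members picked by the naming rule, 11 besides AAAS had a called difference. The 24 h effect was lower than the 8 h effect in 9 of them, with log2 differences of -0.60 in NUP205, -0.55 in NUP188, -0.36 in NUP214, -0.34 in RANGAP1, -0.31 in POM121C, -0.31 in NUP210, -0.29 in POM121, -0.25 in NUP93 and -0.12 in NUP160. It was higher in SEC13 by 0.12 and in SEH1L by 0.15. The difference was no longer called without TEPA 8 h replicate 3 in NUP160 (-0.11), without TEPA 24 h replicate 2 in SEC13 (0.09), and without each of 4 libraries in SEH1L (0.13 to 0.14). AAAS also had a difference, of -1.01, which is given as a description because its fall at 24 h was the reason for choosing it. The naming rule took the lowest and highest called members of this same comparison, so other called members are left out here. Over all 33 tested members, AAAS included, 17 were lower and 2 higher at 24 h than at 8 h, beside 28.8% and 26.0% of all genes.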

How the results depend on the processing

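Among named members, 717 of 756 values under alternatives other than the log2 limit kept direction and call. Of the rest 35 lost and 4 gained the call, and none reversed. A log2 limit of 0.5 left 0 members lower and 0 higher at 8 h, 2 and 0 at 24 h, and 3 and 0 between the times. AAAS, chosen for its 24 h level, is counted in the 2 and in the 3. With only the 2 groups compared, the median difference between the times was -0.094 rather than -0.12. Leaving out 1 library gave 3 to 5 members lower at 8 h (3 without TEPA 8 h replicate 1), and 1 to 3 members higher at 24 h than at 8 h (1 without TEPA 8 h replicate 2 or 3 or any 1 TEPA 24 h library). The replicate numbers did not pair the libraries (correlations of deviations from -0.080 to 0.038); with the replicate block, 7779 rather than 8216 genes were called at 8 h, 8355 rather than 8688 at 24 h and 8758 rather than 9079 between the times, and 1 rather than 2 members were higher at 24 h than at 8 h. All settings other than the log2 limit kept 16 of 22 member calls at 8 h, 14 of 18 at 24 h and 13 of 19 between the times. The tested members had 448 reads or more in each library; NUP210L and NUP62CL, at 0 to 7 reads, could not be compared.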
